A study of Lathyrus oleraceus with 4 samples.

Results

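The comparison set the heated flower buds of the pea cultivar Arka Chaitra, which the submitters describe as heat-tolerant, against those of Matar Ageta, which they describe as susceptible. It uses 2 of the 4 samples of the series, 1 per cultivar, chosen by the sample title and the library name. The Arka Chaitra and Matar Ageta plants of these samples had spent 2 h at 35 °C in a growth chamber, and their unopened buds, taken before anthesis, were sequenced. The other 2 samples are control buds of the same cultivars, and they enter here where a heated difference is set beside the control one. Day and night temperatures of 22 and 16 °C are given for all 4 samples, heated and control. The title and the genotype tag name opposite cultivars in every sample (0 of 4 tags match), so each statement about a cultivar holds for the libraries titled with its name. The batch tag is the same for every sample and says only genotype, so cultivar and any batch that coincides with it cannot be told apart. No label says how many plants a sample holds.

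Anthesis is the opening of the flower, and in legumes the last days before it, when pollen matures, are among the most heat-sensitive of the life cycle. In plants a brief heat episode is known to activate heat shock transcription factors, which switch on genes of chaperones, the proteins that keep others folded. Cultivars of a crop can differ both in how they respond to heat and in which alleles and gene copies they carry, and RNA levels measured after heat hold both kinds of difference.

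Expression was counted for 127533 entries of an assembled transcriptome, grouped into 69607 clusters by number. The identifiers are not paired with gene names, and 0 of them matched the 65673 genes of the pea reference table, so heat shock genes, pollen genes and bud markers could not be picked out, and the tissue label could not be checked. Each library is deposited as 2 numbered columns of estimated counts, called here its first and its second column. No label says whether these are separate plants, preparations or runs, so they were summed to 1 sample, and each is shown beside the sum. The heated libraries held 22721707 estimated counts in Arka Chaitra (12310219 and 10411488 by column) and 32711024 in Matar Ageta (21625288 and 11085736). With 1 sample per cultivar after heat no test between the cultivars is given. Differences are described by size, by the exact 95% counting interval, and by how far apart the columns lie, and intervals and limits cover counting error only.

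RNA was spread over more entries in heated Arka Chaitra buds than in heated Matar Ageta buds. At 1 CPM (the count scaled to library size) or more, 54501 entries were measured in Arka Chaitra and 44983 in Matar Ageta, although the Matar Ageta library was the deeper one. By single column the numbers were 55158 and 49642 in Arka Chaitra, against 44214 and 43149 in Matar Ageta, so the columns of the cultivars did not overlap. At 100 CPM or more the numbers were close, 1607 entries in Arka Chaitra and 1654 in Matar Ageta. The 100 most abundant entries took 11.7% of the counts in Arka Chaitra and 15.7% in Matar Ageta. The 2036 most abundant entries made up 50% of the Arka Chaitra library, against 1413 entries in Matar Ageta. This number was 2119 and 1929 in the Arka Chaitra columns, against 1305 and 1554 in the Matar Ageta columns. The control libraries lay closer together, at 1593 entries (Arka Chaitra) and 1561 entries (Matar Ageta).

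The cultivars differed at least 2-fold in more than every second entry measured after heat. Of 67190 entries with 1 CPM or more in either heated library, 23365 (34.8%) had a level in Arka Chaitra at least 2-fold above that in Matar Ageta, and for 14986 (22.3%) Matar Ageta was higher by this limit. The ratio was formed after adding 0.5 CPM to each value, which understates the fold of low entries, and its counting interval had to exclude 1. The median log2 ratio of Arka Chaitra over Matar Ageta was 0.18 over all 67190 entries. Where the higher library had 5 CPM or more (30933 entries), 4523 (14.6%) passed a 16-fold limit with Arka Chaitra higher and 1638 (5.3%) with Matar Ageta higher. Without the first heated Arka Chaitra column the 2-fold numbers lay closer together, at 18745 in Arka Chaitra and 16928 in Matar Ageta.

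**Figure D1:**
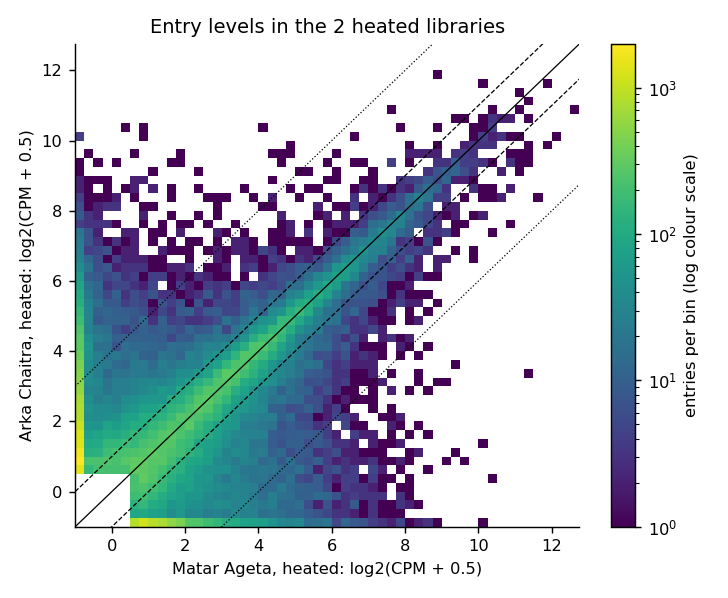
Level of each entry in the heated Arka Chaitra library (vertical axis) against the heated Matar Ageta library (horizontal axis), as log2(CPM + 0.5), for the 67190 entries at 1 CPM or more in either; colour gives the number of entries per bin on a log scale. The solid line marks equal levels, the dashed lines 2-fold and the dotted lines 16-fold differences; besides the band of equal levels, entries lie along both axes, where 1 cultivar had few or no counts.

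The entries that differed made up a large part of each library. Entries past the 16-fold limit in Arka Chaitra took 17.4% of the counts of the heated Arka Chaitra library and 0.0901% of those of the heated Matar Ageta library. Those past it in Matar Ageta took 0.0875% of the counts in Arka Chaitra and 8.35% in Matar Ageta. Single columns gave nearly the same shares: 17.3% and 17.5% in the Arka Chaitra columns for the first set, and 8.27% and 8.49% in the Matar Ageta columns for the second. At the 2-fold limit the shares were alike in size in the cultivars. Entries higher in Arka Chaitra held 31.7% of the Arka Chaitra counts, and entries higher in Matar Ageta held 32.4% of the Matar Ageta counts.

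The balance between the cultivars shifted with the level of the entry. Between 1 and 5 CPM in the higher library, 39.0% of 36257 entries were past the 2-fold limit towards Arka Chaitra and 23.5% towards Matar Ageta. Among the 15270 entries between 10 and 50 CPM, the shares were 29.3% in Arka Chaitra and 21.0% in Matar Ageta. From 100 to 500 CPM (1866 entries) they were 19.9% in Arka Chaitra and 22.5% in Matar Ageta, and at 500 CPM or more (270 entries) 18.5% and 24.4%, in the same order. The median log2 ratio moved with it: it was 0.32 at 1 to 5 CPM, 0.12 at 10 to 50 CPM, -0.11 at 100 to 500 CPM and -0.19 at 500 CPM or more. Entries within 2-fold made up 37.6% at 1 to 5 CPM and 57.6% at 100 to 500 CPM. At least 16-fold differences in favour of Arka Chaitra reached 19.7% of entries at 10 to 50 CPM, while those in favour of Matar Ageta made up 7.03% there and 8.47% at 100 to 500 CPM. Below 5 CPM, and just above it, a 16-fold ratio cannot arise with the 0.5 CPM added. Entries just above 5 CPM therefore count in the total of the 16-fold shares without being able to pass.

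**Figure D2:**
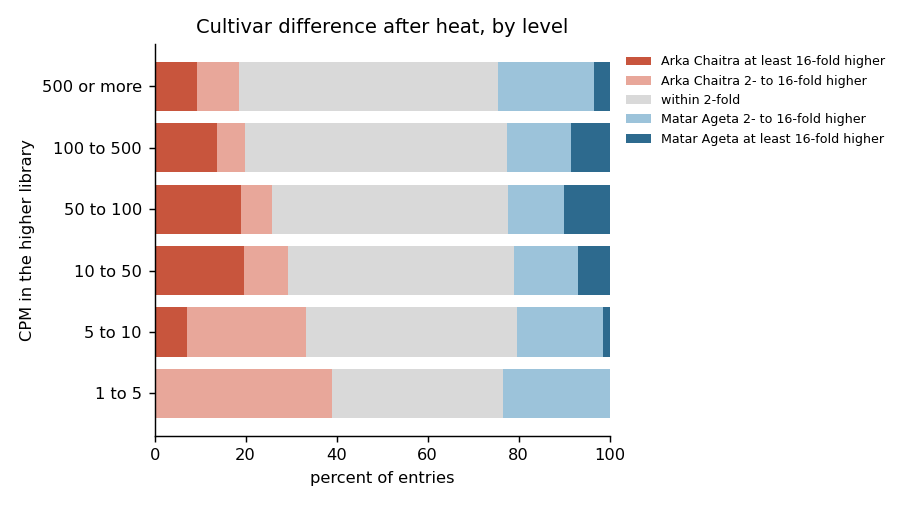
Share of entries (horizontal axis, percent) in 5 classes of cultivar difference after heat, for 6 ranges of CPM in the higher heated library (vertical axis). The part at least 2-fold higher in Arka Chaitra shrinks from 39.0% in the lowest range to 18.5% in the highest, while the Matar Ageta part stays between 20.3% and 24.4%.

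The spread between columns of the same library was large at low levels, and it was not alike in the cultivars at high levels. At 1 to 5 CPM in the higher column, 52.4% of entries differed at least 2-fold between the columns of heated Arka Chaitra and 49.9% between those of heated Matar Ageta. Between columns of different cultivars 63.6% to 72.3% did. At 10 to 50 CPM these shares were 12.8% in Arka Chaitra and 17.6% in Matar Ageta, against 51.9% to 55.1% between cultivars. At 100 to 500 CPM the columns of Arka Chaitra differed in 1.21% of entries and those of Matar Ageta in 12.2%, against 40.9% to 45.2% between cultivars. At 500 CPM or more 0% of entries differed between the Arka Chaitra columns and 18.1% between the Matar Ageta columns, against 39.9% to 46.2% between cultivars. In every range given here the shares between cultivars thus lay above both shares between columns, and by more above 10 CPM than below 5 CPM. No label says what the columns are, so their spread is not known to measure the spread between plants.

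Both columns of Arka Chaitra lay above both columns of Matar Ageta in 22094 of the 67190 entries (32.9%), and below both in 15966 (23.8%). A stricter rule asked for an entry past the 2-fold limit whose columns were also at least 2-fold apart, the lowest of the higher cultivar over the highest of the other. It kept 13260 entries (19.7%) higher in Arka Chaitra and 7935 entries (11.8%) higher in Matar Ageta. These were 56.8% and 52.9% of the entries past the 2-fold limit in Arka Chaitra and in Matar Ageta. Each of the 4 pairs of a column of Arka Chaitra with a column of Matar Ageta had more entries at least 16-fold higher in Arka Chaitra (15.3% to 17.1% of entries at 5 CPM or more) than in Matar Ageta (6.04% to 6.25%). Within heated Arka Chaitra, 3.29% of entries were at least 16-fold higher in the first column and 1.25% in the second. Within heated Matar Ageta these shares were 2.06% and 1.88%.

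The entries named here are the 2 of each direction with the widest gap between the columns of the cultivars, among those with 10 CPM or more in the higher heated library. No product or function is known for them from the sources used here.

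TRINITY_GG_9890_c0_g1 held 1155 and 1125 CPM in the heated Arka Chaitra columns, against 0 and 0 CPM in the heated Matar Ageta columns. Summed, these were 25856 counts in Arka Chaitra and 0 counts in Matar Ageta, at least 12572-fold higher in Arka Chaitra with 3 counts per library (0.0896 CPM) as the limit, and the lower end of the two-sided 95% counting interval was 10223-fold. It was the 37th most abundant entry of the heated Arka Chaitra library. In the controls it held 440 and 397 CPM in Arka Chaitra and again 0 counts in Matar Ageta. The columns of the cultivars did not overlap under either treatment, which after heat follows from the rule that picked the entry. The Arka Chaitra level was higher after heat (log2 ratio of heat over control 1.42).

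TRINITY_GG_14073_c0_g1 held 1138 and 1088 CPM in the heated Arka Chaitra columns, against 0 and 0 CPM in the heated Matar Ageta columns. It was at least 12284-fold higher in Arka Chaitra (25263 counts, against 0 counts in Matar Ageta) by the same limit, with a lower end of the counting interval of 9989-fold. Its control levels differed from this pattern: 1378 and 1334 CPM in Arka Chaitra, against 97.5 and 563 CPM in Matar Ageta. The log2 ratio of Arka Chaitra over Matar Ageta was 11.10 after heat and 2.08 in the controls. Matar Ageta buds thus gave 9920 counts of this entry in the control library and 0 counts after heat. Of the 9920, 8384 came from the second control column, which is described further on as holding many Arka Chaitra entries at an intermediate level, and 1536 from the first.

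TRINITY_GG_65353_c0_g1 was low in Arka Chaitra after heat, at 0.163 and 0 CPM, against 1215 and 908 CPM in Matar Ageta. With 2 counts in Arka Chaitra and 36839 in Matar Ageta, the level was 12820-fold higher in Matar Ageta, with a 95% counting interval of 3495-fold to 104274-fold. It was the 63rd most abundant entry of the heated Matar Ageta library. The control columns showed the same order, with 0 and 0.263 CPM in Arka Chaitra and 1061 and 513 CPM in Matar Ageta. The log2 ratio of Arka Chaitra over Matar Ageta was -10.88 after heat and -10.26 in the controls.

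TRINITY_GG_63718_c0_g1 held 0 and 0 CPM in the heated Arka Chaitra columns and 476 and 487 CPM in the heated Matar Ageta columns. It was at least 3664-fold higher in Matar Ageta (0 counts in Arka Chaitra, with 3 counts or 0.131 CPM as the limit, against 16033 counts in Matar Ageta), and the counting interval began at 2979-fold. In the controls it held 0 and 0.942 CPM in Arka Chaitra, against 509 and 335 CPM in Matar Ageta. For 3 of the 4 named entries the control libraries thus showed nearly the same on-or-off difference as the heated ones. TRINITY_GG_14073_c0_g1 was the exception.

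**Figure D3:**
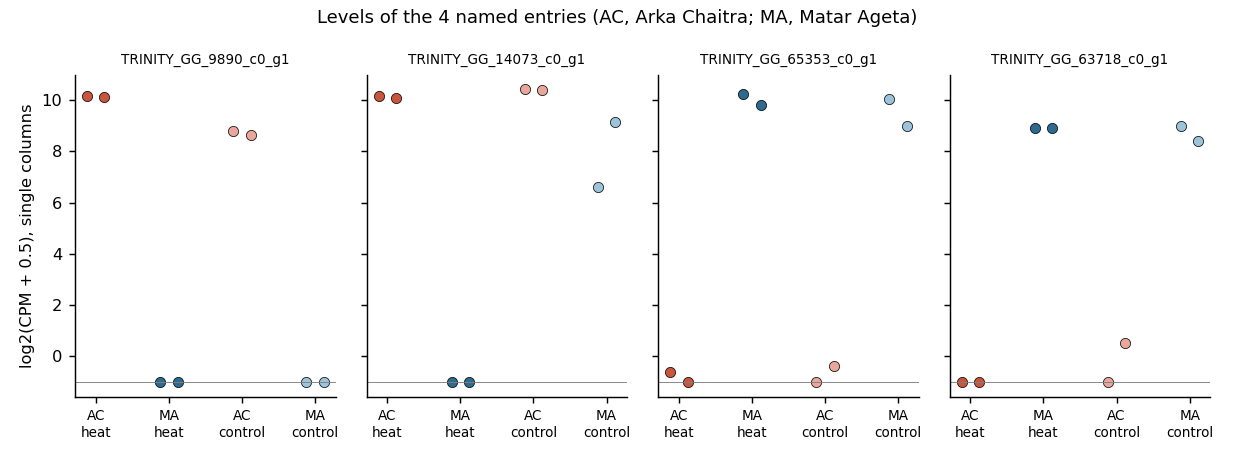
Levels of the 4 named entries as log2(CPM + 0.5) (vertical axis) in the single columns of the heated and control libraries of Arka Chaitra (AC) and Matar Ageta (MA); each point is 1 column, and the grey line marks 0 CPM. In the heated libraries the cultivars are at opposite ends in every panel, which follows from the rule that picked the entries. TRINITY_GG_14073_c0_g1 was present in the Matar Ageta control at 97.5 and 563 CPM.

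Of the 16-fold differences, 3507 of 4523 in Arka Chaitra (77.5%) and 785 of 1638 in Matar Ageta (47.9%) were set against 3 counts or fewer in the other heated library. After heat 4995 entries had 5 CPM or more in Arka Chaitra and 3 counts or fewer in Matar Ageta, and 4087 of these (81.8%) had no count at all in Matar Ageta. In the other direction 1213 entries had 3 counts or fewer in Arka Chaitra and 5 CPM or more in Matar Ageta, and 867 of them (71.5%) had no count in Arka Chaitra. In this direction the number depended on the Arka Chaitra columns: 1859 entries counted without the first and 2111 without the second heated Arka Chaitra column, where 3 counts are a less strict limit. The limit of 3 counts corresponds to 0.131 CPM in the Arka Chaitra library and to 0.0896 CPM in the deeper Matar Ageta library. At 100 CPM or more, 115 entries were detected in this way in Arka Chaitra and 35 in Matar Ageta. Reads of similar entries are divided between them in estimated counts, and an entry without counts in a cultivar does not show that its gene was silent there.

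Most of these entries were also expressed in the control buds of their own cultivar. Of the 4995, 4362 (87.3%) had 1 CPM or more in the Arka Chaitra control, and of the 1213, 1052 (86.7%) had it in the Matar Ageta control. In the control of the other cultivar the directions parted. Of the 4995 Arka Chaitra entries, 1584 (31.7%) reached 1 CPM in the Matar Ageta control, whereas 161 of the 1213 Matar Ageta entries (13.3%) reached it in the Arka Chaitra control. The columns of the Matar Ageta control were unlike in this: 35.3% of the 4995 entries reached 1 CPM in the second column and 10.3% in the first.

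The second column of the Matar Ageta control carried many Arka Chaitra entries at an intermediate level. Of the 4523 entries past the 16-fold limit in heated Arka Chaitra, 3209 had 10 CPM or more in the Arka Chaitra control. In the second Matar Ageta control column 1145 of them (35.7%) stood at 10% to 50% of their Arka Chaitra control level, with a median of 29.6% among these 1145. In the first column 142 (4.43%) stood in that range. Over all 3209 entries the median was 2.15% of the Arka Chaitra control level in the second column and 0.429% in the first. Below 1% of that level stood 46.2% of them in the second column and 56.7% in the first. In the mirror comparison, 1331 entries were past the limit in heated Matar Ageta and had 10 CPM or more in its control. Of these, 45 (3.38%) and 43 (3.23%) stood at 10% to 50% of the Matar Ageta level in the first and second Arka Chaitra control column. Entries chosen in the controls as at least 16-fold higher in Arka Chaitra, with 10 CPM or more in heated Arka Chaitra, numbered 1933. Of these, 37 (1.91%) and 45 (2.33%) stood in that range in the heated Matar Ageta columns. This choice used the summed Matar Ageta control, its second column included. Entries at an intermediate level in that column can fail the 16-fold limit and drop out beforehand. The 1.91% and 2.33% therefore cannot be set against the 35.7%. What the second Matar Ageta control column holds was not tested.

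Differences after heat and differences in the controls come from separate libraries and went largely together. Among 26600 entries with 5 CPM or more in a heated and in a control library, the log2 ratios of Arka Chaitra over Matar Ageta correlated (Pearson's r 0.871, Spearman's rho 0.771). This correlation is across entries, which share libraries and are not replicates, and is given as a description. Of the heated entries past the 16-fold limit in Arka Chaitra, 90.7% were at least 2-fold higher there in the controls as well, by the ratio alone. Of those 16-fold higher in Matar Ageta, 92.5% were at least 2-fold higher there in the controls. Of the 23365 entries past the 2-fold limit in Arka Chaitra after heat, 11080 were past it in the same direction in the controls, which is 47.4% of the heated list and 63.0% of the control list. In Matar Ageta 6762 entries were shared, 45.1% of the heated and 50.7% of the control list. The control lists were 28.5% of 61670 entries in Arka Chaitra and 21.6% in Matar Ageta.

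With all columns kept, the cultivars lay somewhat farther apart after heat than in the controls. The order of the median sizes of the log2 ratio depended on a single control column. Among the 26600 entries, 52.6% were within 2-fold after heat and 56.3% in the controls, and the median size of the log2 ratio was 0.86 after heat and 0.70 in the controls. Leaving out 1 control column in turn gave control medians of 0.75 to 0.87. The highest was without the second Arka Chaitra column, where the order of the medians turned. Over the omissions 53.1% to 56.0% of entries were within 2-fold in the controls, the lowest without that same column. The difference was larger after heat in 59.9% of entries with all columns, and in 54.6% to 57.8% without 1 control column. Each omission left 1 control column of that cultivar against 2 summed columns per heated library, and the effect of this was not tested. Past the 16-fold limit in Arka Chaitra were 4523 entries after heat and 2539 (8.52%) in the controls. For Matar Ageta the numbers were 1638 after heat and 1548 (5.19%) in the controls. The excess in Arka Chaitra depended on the second Matar Ageta control column. Without that column 3914 control entries (13.0%) passed the limit in Arka Chaitra, and 65.8% of the 4523 heated entries were among them, against 43.6% with the column kept. Leaving out any of the other 3 control columns gave 2569 to 2729 entries. The number higher in Matar Ageta was 1525 to 1898 over the 4 omissions.

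**Figure D4:**
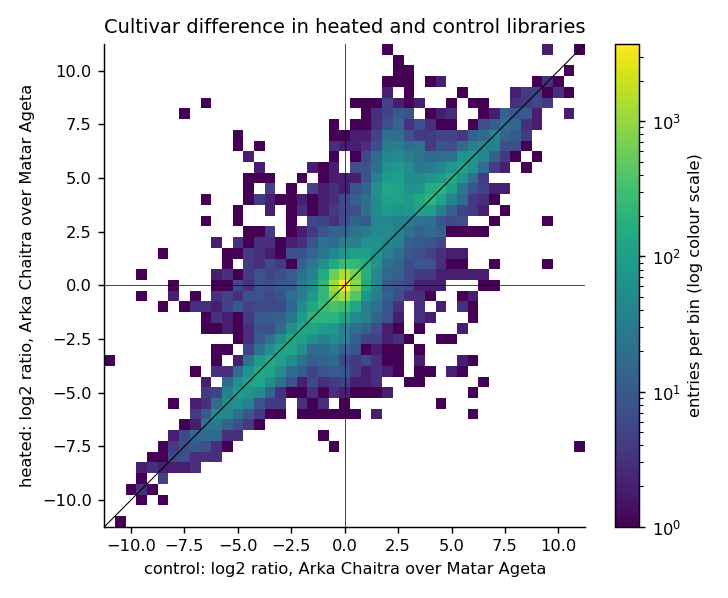
Log2 ratio of Arka Chaitra over Matar Ageta in the heated libraries (vertical axis) against the control libraries (horizontal axis) for 26600 entries with 5 CPM or more in a library of each treatment; colour gives the number of entries per bin on a log scale, and the diagonal marks equal ratios. Most entries follow the diagonal, and a separate group on the Arka Chaitra side lies above it, where the heated ratio exceeds the control ratio. The control ratio includes the second Matar Ageta control column, which held many Arka Chaitra entries at an intermediate level. Whether the group depends on that column was not tested.

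Some large differences after heat had no counterpart in the controls. Of the entries past the 16-fold limit in heated Arka Chaitra, 338 had been within 2-fold in the controls, and 281 of these also had heated columns at least 2-fold apart. Their median level was 12.7 CPM in heated Arka Chaitra and 0 CPM in heated Matar Ageta, and 0 CPM in both controls. Of the 338, 291 were at least 2-fold higher in heated than in control Arka Chaitra buds, and 214 were under 1 CPM in both controls. For these 214 the higher heated level follows from the choice, which asked for 5 CPM or more in heated Arka Chaitra. In Matar Ageta 94 entries were of this kind, 52 of them with columns at least 2-fold apart. Their median was 0 CPM in heated Arka Chaitra and 10.8 CPM in heated Matar Ageta, with 2.43 and 2.68 CPM in the Arka Chaitra and Matar Ageta controls. These entries were picked from the same heated libraries, and whether a cultivar difference depends on heat has no test with 1 sample per group.

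An assembly can split 1 gene into several entries, so counts were also summed over each cluster number. Of 52105 clusters with 1 CPM or more, 15387 (29.5%) passed the 2-fold limit in Arka Chaitra after heat and 11589 (22.2%) in Matar Ageta. Most of the large differences kept their direction in the sum, and fewer kept their size. Each sum includes the entry itself, so a shared direction is partly built in and says little about the other entries of the cluster. Of the 2409 entries at least 16-fold higher in Arka Chaitra that had further entries in their cluster, 2327 (96.6%) lay in a cluster whose sum was at least 2-fold higher there, and for 1929 (80.1%) the sum was at least 16-fold higher. For Matar Ageta 929 of 945 (98.3%) had a sum at least 2-fold higher and 667 (70.6%) one at least 16-fold higher. Opposite differences inside a cluster were less common: 955 of 11668 clusters with several measured entries (8.18%) held entries past the 2-fold limit in both directions, and the sum of 594 of these clusters was within 2-fold. In 6366 clusters the entries past the limit were all higher in Arka Chaitra, and in 2679 all were higher in Matar Ageta.

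The most abundant entry of a cluster was seldom another one in the other cultivar. Among clusters of several entries with 10 CPM or more in both columns compared, 5.07% to 6.65% had another leading entry between a heated Arka Chaitra and a heated Matar Ageta column. Within a library, between its own columns, the share was 5.38% in Arka Chaitra and 3.95% in Matar Ageta, so the range between cultivars reached little beyond it. The direction of the difference was not the same over all cluster sizes. In clusters of a single entry 32.5% of 28019 measured entries passed the 2-fold limit in Arka Chaitra and 22.2% in Matar Ageta. In clusters of 2 entries 38.7% of 16301 passed it in Arka Chaitra and 18.6% in Matar Ageta, and in clusters of 3 to 5 entries 37.7% and 21.2% of 17035, in the same order. In clusters of 6 to 20 entries, 26.4% of 5692 passed it in Arka Chaitra and 35.9% in Matar Ageta. Entries of these larger clusters had a median of 2.67 CPM in the higher library, against 4.80 CPM for single entries.

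The direction of the difference also followed the cluster number itself. Cluster numbers were divided into 70 windows of 1000, and a window was put in a first kind where, in the controls, more entries passed the 16-fold limit in Arka Chaitra than in Matar Ageta, and otherwise in a second kind. The division used the control ratios, which go with the heated ratios across entries as given above, so the values by kind are a description and not independent evidence. After heat, entries past that limit in Arka Chaitra again outnumbered those in Matar Ageta in 28 of 28 windows of the first kind and in 3 of 42 of the second. In the first kind 4018 of 16920 entries (23.7%) were past it in Arka Chaitra and 98 (0.579%) in Matar Ageta. In the second kind 505 of 14013 (3.60%) were so in Arka Chaitra and 1540 (11.0%) in Matar Ageta. At the 2-fold limit the shares were 53.5% in Arka Chaitra and 5.35% in Matar Ageta in the first kind, and 15.7% and 39.5%, in the same order, in the second. What the cluster numbers follow is not given in the sources used here.

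**Figure D5:**
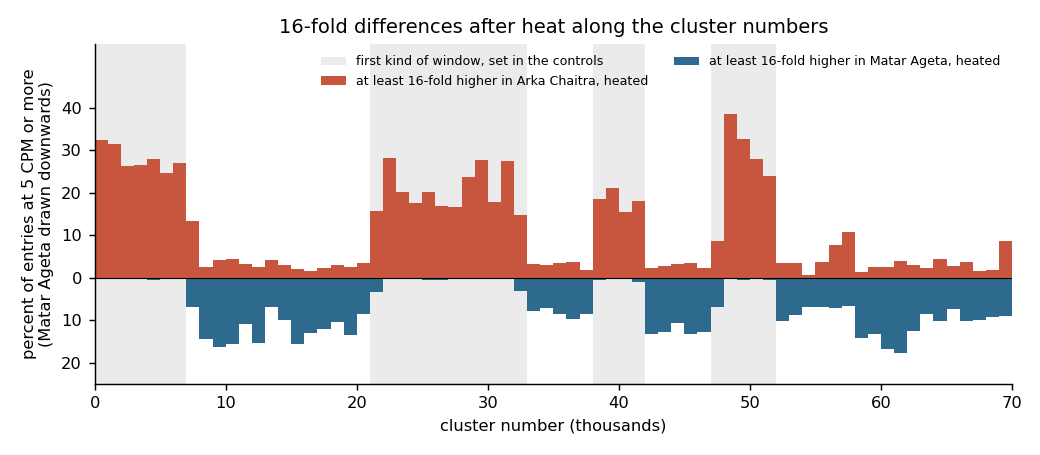
Share of entries at 5 CPM or more in either heated library past the 16-fold limit in Arka Chaitra (upward bars) or in Matar Ageta (downward bars), percent, in 70 windows of 1000 cluster numbers (horizontal axis). Grey bands mark the 28 windows of the first kind, set from the control libraries; in them the upward bars range from 8.72% to 38.5%, and outside them from 0.633% to 13.3%.

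The windows of the first kind formed 4 unbroken runs, from cluster 1 to 7000, 21001 to 33000, 38001 to 42000 and 47001 to 52000. The share of entries 16-fold higher in Arka Chaitra was 28.1%, 20.9%, 18.3% and 28.1% in these runs in that order, and the median log2 ratio was 1.62, 1.07, 0.93 and 1.37. In the 4 runs of the second kind 8.44% to 12.5% of entries were 16-fold higher in Matar Ageta, and the median log2 ratio lay between -0.64 and -0.46. All 8 runs thus showed their direction at the level of the median entry.

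Measured entries were also denser in the first kind, with a median of 622 entries at 5 CPM or more per window, against 328 in the second kind. Of the 47009 entries of the first kind, 69.0% reached 1 CPM in heated Arka Chaitra and 36.2% in heated Matar Ageta. Of the 80524 entries of the second kind, 27.4% reached it in Arka Chaitra and 34.7% in Matar Ageta. The first kind took 64.2% of all counts in heated Arka Chaitra and 45.7% in heated Matar Ageta. By column this was 65.7% and 62.4% in Arka Chaitra, against 45.3% and 46.7% in Matar Ageta. The 4 named entries all lay in windows of the second kind, those higher in Arka Chaitra included.

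Columns of the same library differed along the same windows, by much less. In heated Arka Chaitra 16.2% of first-kind entries at 5 CPM or more were at least 2-fold higher in the first column and 2.84% in the second, while in the second kind 5.58% were higher in the first and 12.7% in the second. In heated Matar Ageta 10.8% of first-kind entries were higher in the first column and 15.4% in the second, and in the second kind 11.2% and 7.94%, in the same order. Every pair of a heated Arka Chaitra and a heated Matar Ageta column showed the difference between the kinds. At the same 2-fold limit, 44.8% to 52.4% of first-kind entries were higher in Arka Chaitra and 4.22% to 10.4% in Matar Ageta. In the second kind these shares were 10.6% to 16.1% in Arka Chaitra and 37.9% to 43.4% in Matar Ageta. At least 16-fold higher in Arka Chaitra were 25.0% to 26.6% of first-kind entries and 4.16% to 5.02% of second-kind entries over the 4 pairs. At least 16-fold higher in Matar Ageta were 0.605% to 1.90% of the first kind and 10.9% to 13.5% of the second.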

How the data were processed

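RNA from pea flower buds was sequenced in 4 samples. For each cultivar the authors deposited expected counts (estimated counts per assembled gene, not whole numbers), which were used as deposited. The tables the authors marked as TMM were scaled per cultivar and were not used. The submitters' processing notes list RSEM, STAR, Bowtie2, FastQC and DESeq2 without roles or versions. The genome build is not stated in these sources. Both tables were joined by identifier, and the 2 columns of each library were summed and rounded for intervals. Libraries, and separately the 8 columns, received TMM factors from edgeR 4.0.16 (R 4.3.3). Counting intervals are exact (Clopper-Pearson, scipy 1.17.1). The 2-fold rule and the interval were tested on simulated counts with known fold changes and counting noise alone. The simulation left out the spread seen between columns of the same library, so it does not show how the rule behaves under that spread. The set of samples, the limits, the windows and the rule for named entries were chosen with earlier results of these data known, and the share of control levels and the omission of control columns after seeing the data. The reference table was that of assembly CAAS_Psat_ZW6_1.0. Alternatives covered scaling (total counts, DESeq2 1.42.0 size factors, heated libraries alone), pseudocount, filter and the omission of each column.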

Additional observations from a re-analysis of the deposited data

Results flagged for a closer look

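The cultivar difference pointed in opposite directions in the heated and in the control libraries for a small number of entries. Of the entries past the 16-fold limit in heated Arka Chaitra, 84 had a control ratio of 2-fold or more towards Matar Ageta, by the ratio alone and with no minimum level or counting interval in the controls; 71 of them had heated columns at least 2-fold apart. Their median level was 10.9 CPM in heated Arka Chaitra and 0 CPM in heated Matar Ageta, with control medians of 0 CPM in Arka Chaitra and 4.42 CPM in Matar Ageta. By the same measure the reverse held for 29 entries, 15 of them with columns at least 2-fold apart, with medians of 0 CPM in heated Arka Chaitra and 12.5 CPM in heated Matar Ageta, and 12.6 and 0.426 CPM in the Arka Chaitra and Matar Ageta controls. The difference between the treatments was not tested for any of them.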

How the results depend on the processing

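Over 136 values of 12 results recomputed under other settings, 91 stayed within 1.5 times the reported count, or, for the shares of heated entries found in the controls, within the counting interval. Other scalings moved no count by 1.5 times; the Arka Chaitra share found in the controls was 46.4% with total counts and 46.7% with DESeq2 size factors. A pseudocount of 0.1 CPM gave 2520 entries 16-fold higher in Matar Ageta. With 2 CPM the 2-fold counts were 14363 in Arka Chaitra and 8782 in Matar Ageta, the 16-fold counts 1207 and 506, the entries with columns apart 5262 in Matar Ageta, its clusters 7720, and the shares found in the controls 55.3% and 54.4%. A minimum of 10 CPM keeps fewer entries by construction: 5485 and 4198 past 2-fold in Arka Chaitra and Matar Ageta, 4833 and 3384 with columns apart, 5510 and 4273 clusters, 2717 and 617 entries detected in 1 cultivar, with 68.4% and 65.0% found in the controls. Without a minimum 26496 and 21647 entries were detected in 1 cultivar, and 45.0% and 41.2% were found in the controls. Leaving out 1 column gave 15609 to 23310 entries with columns apart in Arka Chaitra and 9825 to 12711 in Matar Ageta, where fewer columns must lie apart (23310 without the second Arka Chaitra column, and 12549 and 12711 without the first and second Matar Ageta column). It gave 1283 to 2111 entries detected in Matar Ageta alone, with 2111 without the second and 1859 without the first heated Arka Chaitra column. The shares found in the controls ranged from 42.4% to 54.3% in Arka Chaitra and from 39.7% to 48.5% in Matar Ageta. The cause of these changes was not tested. In every setting more entries were 2-fold higher in Arka Chaitra, at 52.5% to 65.3% of the calls. No paired analysis was possible because the groups compared hold 1 sample each. The titles give replicate number 1 to both controls and 2 to both heated samples, so this number goes with the treatment.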
